A study of Homo sapiens with 5 samples.

Results

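The long arm of human chromosome 4 was examined as 1 continuous block of genes in nascent RNA from HEK293T, a human line of embryonic kidney origin that expresses the large T antigen of SV40. The block is rows 4616 to 5146 of the deposited count table, taken in deposited order. Of its 531 rows, 384 carried an identifier and at least 15 counts summed over the 5 libraries, and these are its members, out of 14496 such genes among 20001 in the table. The main rows (4616 to 5094) hold 350 members, the distal rows (5096 to 5146) hold 33, and row 5095 between them holds 1. The block was selected on the measured difference between the study's 2 cell lines, that is, on the fold change of its genes in all 5 libraries. Every value of one line against the other is therefore a description of the members. Calls of edgeR are quoted only to sort members beside the same calls over all genes, and are not a test of the block.

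Both groups were HEK293T cells with a landing pad, which is a genomic site built to receive inserted DNA, and were grown in the same serum-containing medium. The PGK group (2 libraries) carried a landing pad with the PGK promoter, taken from a glycolytic enzyme gene, and the CAG group (3 libraries) one with the CAG promoter, a strong composite promoter. Per the labels, the lines were monoclonal, so that each line descends from 1 cell, and the effect of the promoter and the difference between the founding cells cannot be told apart. The labels do not say whether the libraries of a line came from separate cultures, so the spread between them may be technical.

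PRO-seq maps RNA polymerases that are engaged on DNA: permeabilised nuclei are allowed to extend their nascent transcripts with biotin-labelled nucleotides, and the labelled RNA is captured and sequenced. The count of a gene is thus a measure of transcription in progress. HEK293T is known as an aneuploid line, and DNA copy number was not measured in these data. The long arm of chromosome 4 is known for large clusters of tissue-restricted genes, such as those of serum albumin, the caseins, the chemokines and the alcohol dehydrogenases, with broadly expressed genes of cell division, chromatin and translation between them.

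The places where the block starts, divides and ends are marked by 5 genes, and a stretch of the promoter of each is printed here because these genes delimit the levels described next. The letters are from RefSeq on the plus or minus strand of build GRCh38.p14, each 30 bases long, 5′ to 3′, and the capitals mark a GC box (GGGCGG, searched on both strands), the short motif to which SP-family factors bind. The positions are chr4:48830880-48830909 (plus strand) for OCIAD1, which lies before the block, chr4:51843108-51843137 (plus) for DCUN1D4, its first row, chr4:177442439-177442468 (minus) for AGA, the last of the main rows, chr4:182143933-182143962 (plus) for TENM3, the first of the distal rows, and chr4:189940688-189940717 (plus) for FRG1, the last named chromosome 4 gene of the block with counts.
OCIAD1: catccagggaagGGGCGGggcagggttctt
DCUN1D4: agaaggcgagatGGGCGGgctgggagtgcc
AGA: tgggcgccaggcGGGCGGggcactggggat
TENM3: ggaaggagggagGGGCGGcgaacgtggttc
FRG1: gcaccgcgcctcGGGCGGgcttttctccct
The GC box nearest to the start site lay 12 bases before it in TENM3, 13 in AGA, 27 in DCUN1D4, 166 in FRG1 and 190 in OCIAD1. A GC box was thus found on both sides of the start and of the inner boundary, and no promoter from beyond the end of the block is shown.

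Promoters of 293 of the 334 named members were found in RefSeq. In the 250 bases before the start, 192 of them (65.5%) held a GC box, against 56% of 15843 RefSeq protein-coding genes. A CCAAT box (CCAAT) was found in 31.1% of the members and 34.5% of all genes, and a TATA box (TATAAA) in 6.48% and 9.23%, each on either strand. The larger set includes genes that are silent in HEK293T, and the shares were not tested against each other. A match is a string of letters and not evidence of a bound factor.

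The row order was checked with 427 gene identifiers known for chromosome 4. All 427 were in the table, all 427 symbols were on chromosome 4 in RefSeq, and 0 neighbouring pairs were out of the RefSeq order. Only 205 of them were written down without the table in view. All 205 were present, and 0 of their neighbouring pairs were out of order. The other 222 were written with it in view, so their presence and order were partly fixed in advance. On the 205 alone, the rule holds for the long arm, with 1 exception. The last row, 5146, is PLEKHG4B, which RefSeq places on chromosome 5, ahead of SDHA (row 5149) and TERT (row 5168). The rows just before it, 5138 to 5145, had 0 counts in every library, so the last chromosome 4 gene with counts was FRG1 in row 5137. Values of the distal rows are given with PLEKHG4B, as the rule has it, and where it matters without it.

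The libraries held 3712105 to 5864157 counts, and the table as a whole differed widely between the lines. Of 13400 genes tested with edgeR, 43.4% were called at an adjusted p under 0.05, 22.7% as higher in CAG and 20.7% as lower. The cell line label was set against 5 genes known in HEK293T, VIM, PAX2, NES, KRT18 and KRT8, of which none was at 0 and whose summed level was 103 to 111 CPM in PGK and 148 to 154 CPM in CAG. VIM made up most of that sum, and PAX2 ran the other way, with 8.85 and 7.56 CPM in PGK and 4.06, 3.36 and 4.25 CPM in CAG. Of 5 genes of other cell types, HBB and INS were at 0, MYH7 had 1 count, PTPRC averaged 0.343 CPM and APOA1 9.06 CPM. Among the HEK293T genes only VIM, with a mean of 113 CPM, lay above APOA1. The means of PAX2 (5.61 CPM), NES (2.1), KRT18 (8.15) and KRT8 (5.13) lay below it, so the sums say little about the label. The summed level of those 5 was 4.76 to 10.4 CPM in PGK and 10.1 to 11.6 CPM in CAG. Whether these differences bear on the block was not tested.

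The genes of the block were, as a body, transcribed more in the CAG line. Fold changes are given on the log2 scale as CAG over PGK. For stretches, windows and lists, the median of all tested genes was set to 0, so that a value of 0 is the level of a typical gene. Values quoted for single genes are as fitted, without this step, and can differ in the last digit (ARSJ is -3.45 as fitted and -3.44 after it). The median over the 384 members was 0.50, a 1.42-fold level, with quartiles of 0.31 and 0.74. Of the members, 348 (90.6%) lay above 0. Over all 14496 genes with 15 counts or more, the median was 0.011, the quartiles were -0.20 and 0.35, and 51.2% lay above 0.

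Of the 353 members that passed edgeR's filter on low counts, 270 (76.5%) were called higher in CAG and 15 (4.25%) lower, beside 22.7% and 20.7% of all tested genes. Because this contrast chose the block, nothing is read from those shares. The 3 CAG libraries all lay above both PGK libraries in 292 tested members and all below in 18, beside 30.9% and 30.4% of all tested genes (61.2% for both directions). The other 31 members were too low to be tested, and 27 of them lay above 0.

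The same shift was seen in each library. For each gene, the level in a library was set against that gene's mean over the 5 libraries, on the log2 scale, and the median was taken over the members. It was -0.33 and -0.25 in PGK and 0.19, 0.17 and 0.23 in CAG. The lines did not overlap, and the gap between the lowest CAG and the highest PGK library was 0.42. The 2 PGK libraries differed by 0.081 and the CAG libraries by at most 0.055. Over all tested genes, PGK replicate 2 minus PGK replicate 1 was -0.0036. In the 100 tested rows before the block it was 0.04, and in the 100 tested rows after the block it was 0.079. The PGK difference was thus also seen in rows outside the block.

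The block also took a larger share of all counts in the CAG line. It held 2% and 2.08% of the counts of the PGK libraries (2.04% ± 0.0575, SD, n = 2) and 2.83%, 2.75% and 2.87% of the CAG libraries (2.82% ± 0.0606, SD, n = 3), a ratio of 1.38. The 95% Wilson interval of the lowest share ran from 1.9916% to 2.0149% and that of the highest from 2.8612% to 2.8883%. Intervals cover counting error only.

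**Figure D1:**
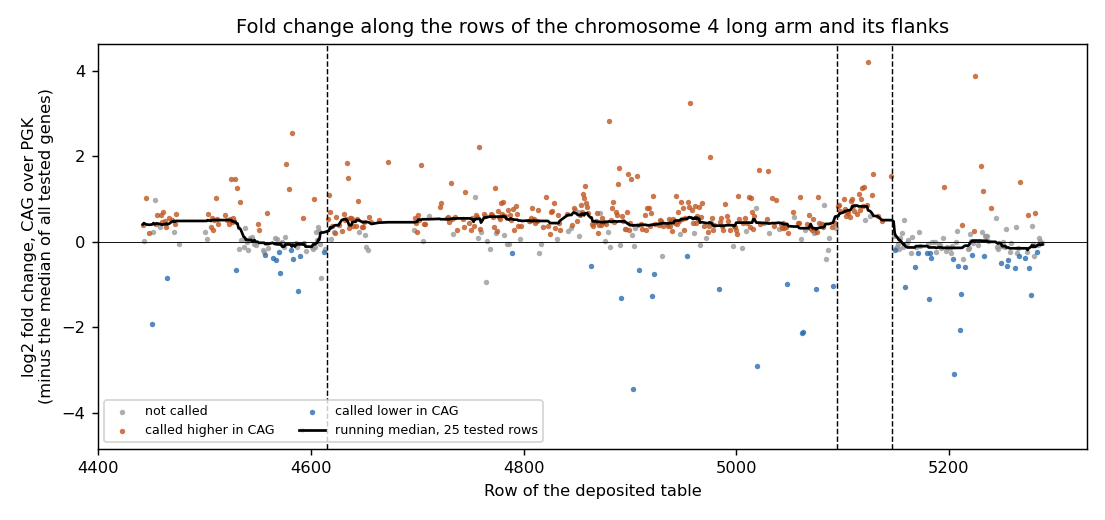
Each point is 1 tested gene at its row in the deposited table (horizontal axis), with its log2 fold change, CAG over PGK, on the vertical axis. Colours give the edgeR call, the line is a running median over 25 tested rows, and the dashed lines mark the start of the block, the inner boundary and the end of the block. The running median is above 0 at the far left and near 0 closer to the block. It rises just ahead of the first dashed line, where its window reaches into the block. It stays above 0 across the main rows, is highest after the inner boundary and falls to near or below 0 after the end.

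The block starts at DCUN1D4, and since its rows were selected on the fold changes, a step there is partly fixed in advance. The last tested rows before it were FRYL, a large furry-family gene, with 177 and 190 CPM in PGK and 158, 150 and 157 CPM in CAG (log2 fold change -0.24), and OCIAD1, with 93.1 and 107 CPM against 88.1, 89.8 and 86.8 CPM (-0.17). CPM is the count scaled to the library's size after TMM normalisation. In both genes all PGK libraries lay above all CAG libraries. The first row of the block, DCUN1D4, which encodes a cullin neddylation factor, had 108 and 101 CPM in PGK and 150, 154 and 151 CPM in CAG (0.53). It was followed by LRRC66 at 1.10 and by SGCB, a sarcoglycan gene, with 21.6 and 20.2 CPM against 33.5, 37.1 and 31.8 CPM (0.70). In DCUN1D4 and SGCB the CAG libraries were the higher ones. The next tested row, SPATA18, stood at 0.052 with overlapping lines and was not called, and RASL11B (0.22) was not called either. Of the first 25 tested members, all 25 lay above 0 and 22 were called higher. Of the last 40 tested rows before the block, 6 were called higher and 11 lower.

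The centromere lies between OCIAD1 and DCUN1D4, so that the start of the block falls at the change from the short to the long arm. The short arm was not uniform. The 40 tested rows directly before the block (4557 to 4613) had a median of -0.082, and the 60 tested rows ahead of those (4442 to 4556) had a median of 0.40, with 49 of 60 genes above 0. After the block, the 100 tested rows on chromosome 5 (5148 to 5288) had a median of -0.10. A level above 0 thus returned on the short arm at some distance from the block.

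The distal rows stood higher than the main rows. The median fold change was 0.46 over the main rows (1.37-fold, quartiles 0.29 and 0.69) and 0.85 over the distal rows (1.8-fold, quartiles 0.67 and 1.09). All 33 distal members lay above 0, against 314 of 350 members of the main rows. Without PLEKHG4B, the distal median over 32 members was also 0.85. The inner boundary was placed on these same fold changes, so the difference describes the split and is not a test of it. The distal tested members were also lower in level, with a median of 21.4 CPM against 56.3 CPM in the main rows. The lowest group of tested members by mean CPM had a median fold change of 0.71. The stretches were not compared at matched CPM.

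By library, the level of the main rows was -0.31 and -0.23 in PGK (-0.27 ± 0.063, SD, n = 2) and 0.18, 0.16 and 0.22 in CAG (0.18 ± 0.031, SD, n = 3). For the distal rows it was -0.52 and -0.45 in PGK (-0.48 ± 0.047) and 0.31, 0.28 and 0.34 in CAG (0.31 ± 0.027). Each PGK library was lower and each CAG library higher in the distal than in the main rows. Levels are set against each gene's mean over the same 5 libraries, so a larger fold change by itself moves PGK down and CAG up. The pattern thus adds little to the difference in fold change. The distal rows held 0.0728% and 0.0721% of the counts of the PGK libraries and 0.131%, 0.126% and 0.132% of the CAG libraries, a ratio of 1.79.

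**Figure D2:**
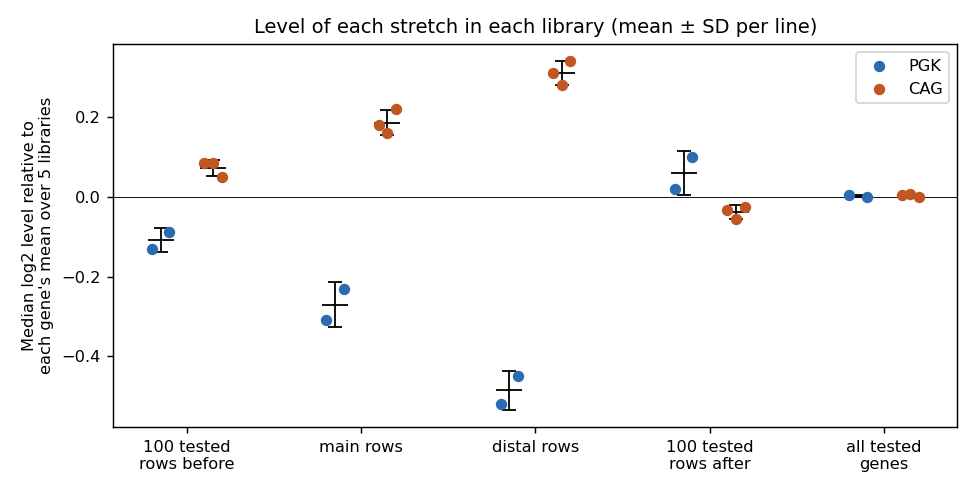
Median log2 level of the genes of each stretch in each library, relative to each gene's mean over the 5 libraries (vertical axis), for the flanking rows, the main rows, the distal rows and all tested genes (horizontal axis). Points are libraries (blue PGK, orange CAG) and bars are the mean ± SD of a line. The lines lie apart by 0.38 in the main rows and by 0.73 in the distal rows, and all 5 libraries lie at about 0 over all tested genes.

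The inner boundary fell between AGA, the gene of a lysosomal enzyme, and TENM3, a teneurin adhesion gene of neurons. The last 5 members ahead of it were SPATA4, SPCS3, VEGFC, NEIL3 and AGA. AGA had 11.5 and 10.6 CPM in PGK and 14.4, 14.2 and 13.3 CPM in CAG (0.32), and NEIL3, a DNA glycosylase gene, had 122 and 127 CPM against 172, 165 and 169 CPM (0.44). Both were higher in all CAG libraries. VEGFC, a lymphatic growth factor gene, ran the other way at -1.04.

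The next members beyond the boundary were TENM3, DCTD, WWC2, CDKN2AIP and ING2. TENM3 had 159 and 171 CPM in PGK and 299, 273 and 312 CPM in CAG (0.84), and DCTD, the deaminase of deoxycytidylate, had 21.2 and 20.4 CPM against 39.8, 38.3 and 35.3 CPM (0.85). WWC2, a WW-domain gene, had 72 and 79.5 CPM against 129, 118 and 127 CPM (0.73). In TENM3, DCTD and WWC2 every CAG library lay above both PGK libraries. Row 5095, the single member between the stretches (ENSG00000231171), had 7 and 0 counts in PGK and 4, 8 and 6 in CAG, too few to place it with either.

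Near the boundary, the spread of single genes was wide on the near side and narrow on the far side. The last 10 tested members of the main rows had a median of 0.33 and ran from -1.04 to 0.87. The first 10 tested members of the distal rows had a median of 0.75 and ran from 0.59 to 1.01. The remaining 19 had a median of 0.87 and ran from 0.48 to 4.20.

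**Figure D3:**
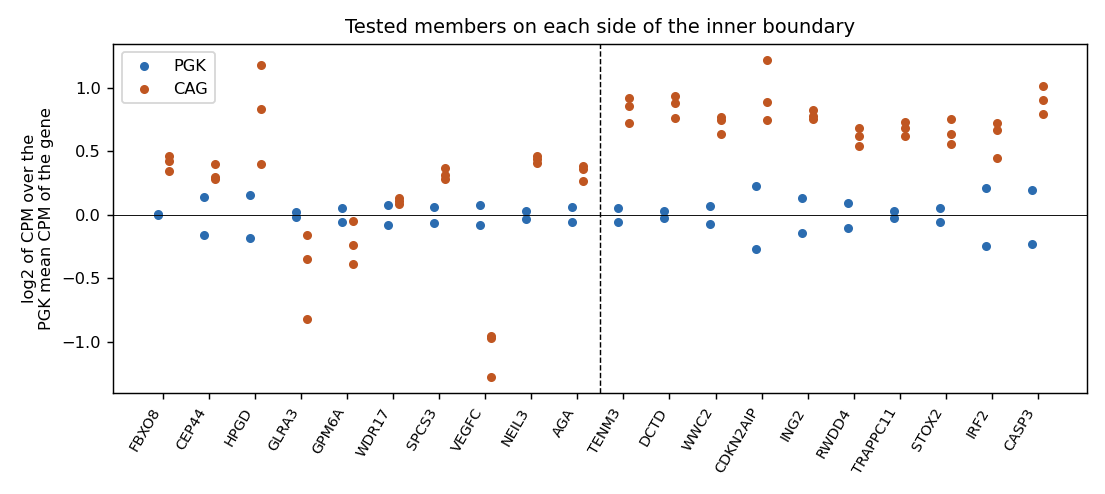
CPM of each library over the PGK mean CPM of the gene, on the log2 scale (vertical axis), for the last 10 tested members of the main rows and the first 10 of the distal rows in row order (horizontal axis, dashed line at the boundary). Points are libraries, blue for PGK and orange for CAG. VEGFC, GLRA3 and GPM6A lie below the PGK mean in CAG, and all 10 genes right of the line lie above it.

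The level also varied along the main rows, which were divided into 13 windows in row order, of 25 tested members each except the last, which had 24. The window medians ran from 0.32 in the last (rows 5065 to 5094, DDX60 to AGA) to 0.66 in the sixth (rows 4841 to 4870, MTTP to TBCK), and the first window stood at 0.53. No window had more members called lower than 4. Over the whole table, 536 such windows ran from -0.70 to 0.99, and 85 of them (15.9%) were at or above 0.32. The 85 include windows of the block itself, and 0.32 is the lowest median of the main rows, below the block median of 0.50. Windows outside the block thus also reached the low end of its range. How many of them reached 0.50 was not counted.

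Members with more counts agreed more closely in fold change, and whether count depth is the reason was not tested. The tested members were split into 4 groups by mean CPM, which sets counts per gene and not per length. In the lowest group, with a median of 7.87 CPM, the median fold change was 0.71 and the interquartile range 0.78. In the highest, with a median of 148 CPM, these were 0.45 and 0.26, and 81 of 88 members were called higher and 0 lower. All 14 of the called-lower members in the lower 2 groups, and 1 in the third, account for the 15 of the block. Of all 353 tested members, 208 (58.9%) lay within 0.25 of the block median, 15 lay more than 1 above it and 14 more than 1 below.

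The members with the highest levels show the shift with little counting error. LRBA, which encodes a vesicle protein that protects CTLA4 from degradation, had 377 and 395 CPM in PGK and 566, 536 and 575 CPM in CAG (386 ± 12.9 against 559 ± 20.5, log2 fold change 0.54, SE 0.078). ANKRD17, an ankyrin-repeat gene, had 375 and 412 CPM against 525, 502 and 545 CPM (0.41, SE 0.079). NAA15, a subunit of an amino-terminal acetyltransferase, had 258 and 309 CPM against 384, 374 and 393 CPM (0.44, SE 0.084). In these 3 genes the lines did not overlap. ADGRL3, a latrophilin adhesion receptor gene, departed from them with 359 and 414 CPM in PGK against 348, 348 and 361 CPM in CAG (-0.13, SE 0.08, not called), and its lines overlapped. Without PGK replicate 1 it was called lower, at -0.24. SEC31A had 290 and 370 CPM against 384, 374 and 411 CPM (0.24). It was not called without PGK replicate 1 (0.065) or without CAG replicate 1 (0.25), 2 (0.28) or 3 (0.20). With the replicate number as a block in the fit it was not called either (0.21).

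The members were next described by role. The counts below name how many tested members of a list edgeR called higher or lower in CAG, to be read beside the 22.7% and 20.7% of all genes and the block median of 0.50. They support nothing about a pathway, since a list shares its position with the block.

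Cell division genes lay close to the block level. Of 17, 16 were called higher, 0 lower, and HELQ, a repair helicase gene, was not called except without CAG replicate 2 (0.24). The list median was 0.51, and with 1 library left out 15 to 17 were called higher. CCNA2, the cyclin A gene that acts in S phase and mitosis, had 56.5 and 61.6 CPM in PGK and 84.3, 80.4 and 84.8 CPM in CAG (0.50). PLK4, the kinase that starts centriole duplication, had 45 and 42.5 CPM against 67, 72.3 and 73.2 CPM (0.69). MAD2L1, of the spindle checkpoint, had 79.8 and 78.4 CPM against 104, 99.5 and 104 CPM (0.38). In all 3 the CAG libraries lay above the PGK libraries.

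Kinetochore genes are found in both stretches. CENPE, a kinetochore motor gene of the main rows, had 121 and 137 CPM in PGK and 199, 206 and 211 CPM in CAG (0.67), and CENPC, which binds centromeric nucleosomes, had 80.5 and 84.3 CPM against 124, 120 and 124 CPM (0.58). CENPU, which lies in the distal rows, had 42.8 and 41.7 CPM against 80.8, 72.9 and 75.4 CPM (0.85). PRIMPOL, a primase-polymerase gene next to CENPU in the distal rows, had 20.9 and 14.6 CPM against 34.7, 34.7 and 40.4 CPM (1.01). The distal pair lay farther above 0 than the main pair.

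Of 24 chromatin and transcription genes, 22 were called higher, 0 lower, and LEF1 and MAML3 were not called. The list median was 0.46, and with 1 library left out 20 to 21 were called higher. Without PGK replicate 1, MAML3 was called lower, at -0.25. HMGB2, which encodes a DNA-bending protein, had 28.1 and 25.8 CPM in PGK and 66, 47.8 and 53.3 CPM in CAG (1.03), and H2AZ1, a histone variant gene, had 36.6 and 38.6 CPM against 69, 60.6 and 66.1 CPM (0.80). NFKB1, a subunit of NF-kappa-B, had 62.1 and 63 CPM against 113, 111 and 116 CPM (0.86). These 3 lay above the block median, and TET2, the 5-methylcytosine oxidase gene, lay close to it with 99.7 and 93.5 CPM against 129, 127 and 134 CPM (0.43).

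POLR2B, the second largest subunit of RNA polymerase II, had 96.6 and 116 CPM in PGK and 142, 147 and 143 CPM in CAG (0.45). CLOCK, of the circadian transcription factor pair, had 102 and 119 CPM against 159, 153 and 163 CPM (0.53). REST, the repressor of neuronal genes, had 54.2 and 51.5 CPM against 70.9, 67.9 and 64.9 CPM (0.35). The lines were apart in all 3. LEF1, a transcription factor of the Wnt pathway, stood at the level of a typical gene of the table, with 93.1 and 101 CPM against 93.2, 100 and 101 CPM (0.025).

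Of 24 genes of RNA handling and translation, 23 were called higher and 0 lower. The list median was 0.54, and with 1 library left out 21 to 24 were called higher. EIF4E, the cap-binding protein of translation, had 145 and 158 CPM in PGK and 234, 228 and 239 CPM in CAG (0.63). HNRNPD, which binds AU-rich RNA, had 140 and 146 CPM against 222, 229 and 213 CPM (0.63), and its neighbour HNRNPDL 152 and 152 CPM against 229, 222 and 233 CPM (0.59). METTL14, of the RNA adenosine methyltransferase, had 53.5 and 55.4 CPM against 69.7, 68.5 and 78 CPM (0.41), and the reader of that mark, YTHDC1, stood at 0.52. The CAG libraries were the higher ones in each of these 5 genes.

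RPS3A, a ribosomal protein gene, was the exception of that list, and its PGK libraries disagreed with each other. It had 93.5 CPM in PGK replicate 1, 214 in PGK replicate 2 and 140, 141 and 122 CPM in CAG (-0.15, SE 0.17, not called). Without PGK replicate 1 its value was -0.69 and it was called lower, and without PGK replicate 2 it was 0.52 and it was called higher. No direction is therefore given for RPS3A. RPL34, the other ribosomal protein gene described, had 128 and 141 CPM against 172, 179 and 186 CPM (0.42).

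Of 16 genes of the secretory pathway, 14 were called higher, 0 lower, and USO1 and OSTC were not called. The list median was 0.44. With PGK replicate 1 left out, 10 of the 16 were called higher, and without PGK replicate 2 all 16 were, USO1 (0.27) and OSTC (0.48) among them. SEC24B, a cargo adaptor of COPII vesicles, had 121 and 135 CPM in PGK and 181, 173 and 189 CPM in CAG (0.51), and SRP72, of the signal recognition particle, had 77.2 and 82.6 CPM against 111, 118 and 114 CPM (0.52). TRAM1L1, a homolog of a translocon gene, was farther up at low counts, with 2.3 and 0.84 CPM against 4.67, 5.73 and 4.93 CPM (1.55).

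Of 22 metabolic genes, 18 were called higher and 0 lower, and ELOVL6, MTTP, AGA and SCD5 were not called. The list median was 0.55, and with 1 library left out 16 to 18 were called higher. The neighbouring purine synthesis genes PPAT and PAICS had values of 0.38 and 0.36. PPAT had 97.4 and 111 CPM in PGK and 137, 132 and 136 CPM in CAG, and PAICS 141 and 149 CPM against 196, 178 and 184 CPM. MSMO1, a sterol oxidase gene of cholesterol synthesis, had 45.8 and 53.7 CPM against 106, 98.5 and 99.4 CPM (1.04). ELOVL6, a fatty acid elongase gene, had overlapping lines with 122 and 136 CPM against 124, 113 and 125 CPM (-0.082).

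All 15 genes of ubiquitin and proteostasis were called higher, with a median of 0.44, and with 1 library left out 13 to 15 were. UBE2D3, a ubiquitin-conjugating enzyme gene, had 170 and 180 CPM in PGK and 381, 375 and 371 CPM in CAG (1.10, SE 0.079), the list's largest value. UBA6, an activating enzyme for ubiquitin and FAT10, had 90.6 and 102 CPM against 133, 126 and 136 CPM (0.47). The deubiquitinase genes USP46, USP38 and USP53 had values of 0.38, 0.57 and 0.28. UFSP2, which removes UFM1 from proteins and lies in the distal rows, had 12.6 and 15.4 CPM against 22.9, 27.6 and 22.8 CPM (0.83). In these genes the CAG libraries lay above the PGK libraries.

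Of 16 genes of adhesion and the cytoskeleton, 13 were called higher and PCDH10, a protocadherin gene, lower. FRAS1 and ADGRL3 were not called (FRAS1 was, at 0.19, without PGK replicate 2), the list median was 0.57, and with 1 library left out 11 to 14 were called higher. FAT1, a giant cadherin gene near the end of the distal rows, had 70.8 and 71.9 CPM in PGK and 101, 111 and 111 CPM in CAG (0.60). PALLD, which encodes an actin-bundling protein, had 130 and 128 CPM against 163, 174 and 179 CPM (0.41). PCDH10 had 52 and 56.3 CPM against 39.6, 43 and 44.2 CPM (-0.35), while PCDH18, in the next row but one, had 7.61 and 9.24 CPM against 13.4, 15.2 and 14.9 CPM (0.81). These protocadherin genes, neighbours but for PABPC4L (0.93), lay on opposite sides of 0.

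Growth factor, receptor and signalling genes had the widest range of the lists, and members called in both directions. Of 26 in the block, 8 had fewer than 15 counts, 4 of them at 0, and of the 15 tested ones 8 were called higher, 3 (VEGFC, SFRP2 and HHIP) lower and 4 were not called. The median over its 18 members was 0.26, and with CAG replicate 3 left out 4 of 15 were called higher. BMPR1B, a BMP receptor gene, had 76.3 and 83.4 CPM in PGK and 128, 125 and 133 CPM in CAG (0.70), and PDGFC, a platelet-derived growth factor gene, had 68.9 and 73.1 CPM against 91.4, 85.7 and 96 CPM (0.37). SPRY1, an inhibitor of growth factor receptor signalling, had 27.3 and 24.9 CPM against 34.9, 39.7 and 36.9 CPM (0.50).

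The 3 called-lower genes of that list encode ligands or proteins that bind ligands, as do genes called higher in it, such as PDGFC and BMPR1B. SFRP2, a secreted Wnt antagonist gene, had 6.2 and 4.2 CPM in PGK and 0.609, 1.18 and 0.34 CPM in CAG (-2.92, SE 0.43), and HHIP, which encodes a hedgehog-binding protein, had 14.7 and 16 CPM against 8.33, 6.32 and 6.63 CPM (-1.11). VEGFC had 27.1 and 30.2 CPM against 11.8, 14.8 and 14.6 CPM (-1.04, SE 0.15). In these 3 genes every CAG library lay below both PGK libraries. KIT, the stem cell factor receptor gene, had 44.1 and 42.3 CPM against 54.4, 49 and 51.1 CPM (0.25). Its call was lost without PGK replicate 1 (0.28) or 2 (0.23) and without CAG replicate 1 (0.21) or 3 (0.26). It was also lost with DESeq2 (0.25), with no filter (0.24) and with the replicate number as a block in the fit (0.26).

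**Figure D4:**
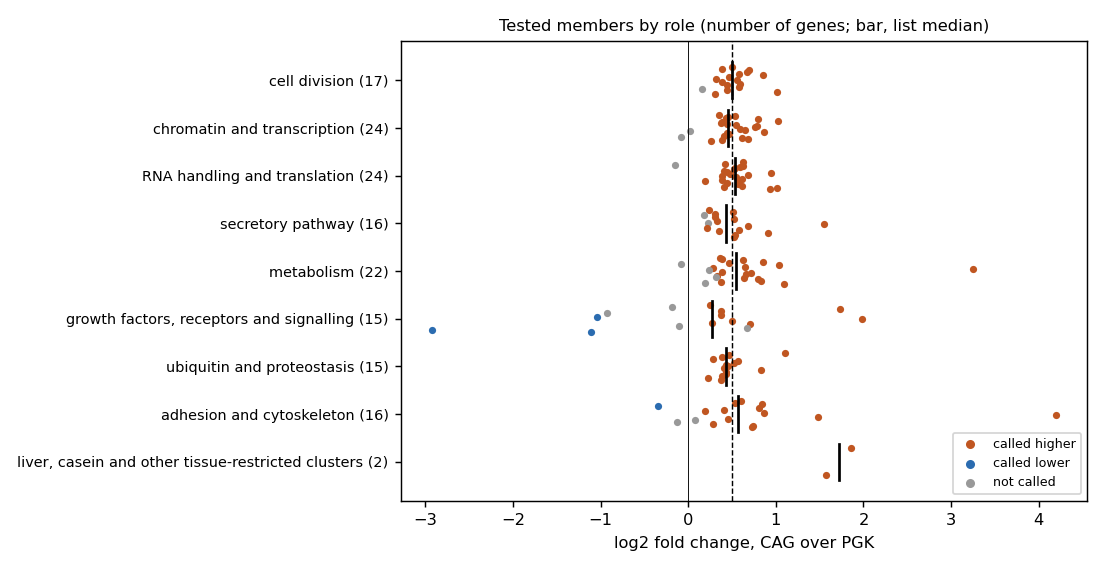
Log2 fold change, CAG over PGK (horizontal axis), of the tested members of each role (vertical axis, number of genes in brackets). Points are genes coloured by the edgeR call, short bars are list medians and the dashed line is the block median of 0.50. Points and bars are as fitted, and the block median is after the median of all tested genes was set to 0. Most lists have their median between 0.44 and 0.57, and growth factor, receptor and signalling genes have theirs lower and reach -2.92.

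A few members departed far from the rest of the block. By the rule of a mean of at least 5 CPM and lines that do not overlap, SORBS2 lay farthest above the block median. SORBS2, an adaptor gene of the actin cytoskeleton in the distal rows, had 1.24 and 1.12 CPM in PGK and 25.6, 20.9 and 20.6 CPM in CAG, an 18.3-fold difference (4.20, SE 0.29). It rests on 7 and 4 counts in PGK. Its neighbour PDLIM3 had 8.67 and 11.8 CPM against 16.9, 17.2 and 19.9 CPM (0.86), the level of the distal rows.

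SLC7A11, the cystine transporter gene, followed. It had 10.3 and 11.5 CPM in PGK and 102, 99.5 and 105 CPM in CAG, a 9.5-fold difference (3.25, SE 0.12). Its neighbours PCDH18 and NOCT stood at 0.81 and 0.74. Of these 3 consecutive rows, SLC7A11 alone lay far above the block median.

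Further members above the block level were UGT2B4 (3.62-fold), DCHS2 (3.19-fold), GUCY1A1 (3.12-fold), KLKB1 (2.97-fold), NMU (2.81-fold) and ANK2 (2.78-fold). GUCY1A1, a subunit of soluble guanylate cyclase, had 22.5 and 26.9 CPM in PGK and 71.3, 73.6 and 81.7 CPM in CAG (1.64), while the partner subunit GUCY1B1 in the next row had a value of 0.20 and was not called. ANK2, a membrane-skeleton ankyrin gene, had 60.7 and 65.2 CPM against 170, 168 and 185 CPM (1.48). ENSG00000164089, which the files do not name, was higher by 2.82 with a mean under 5 CPM.

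ARSJ, an arylsulfatase gene, lay farthest below by the same rule. It had 34.7 and 37.5 CPM in PGK and 2.64, 2.96 and 4.08 CPM in CAG, a 10.9-fold difference towards PGK (-3.45, SE 0.19). ANK2, CAMK2D and ARSJ are in consecutive rows (4901, 4902 and 4903), and their values were 1.48, 0.15 and -3.45. Genes next to each other thus lay far above and far below the block median.

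TLL1 and SPOCK3, in consecutive rows 5062 and 5063, were both lower in CAG. TLL1, a tolloid-like metalloprotease gene, had 25.3 and 26.3 CPM in PGK and 4.87, 5.13 and 7.13 CPM in CAG (-2.15, SE 0.19), and SPOCK3, a testican proteoglycan gene, had 33.5 and 34.7 CPM against 7.92, 7.11 and 8.49 CPM (-2.11, SE 0.16). They are 2 of the 15 members called lower, and no longer run of neighbouring tested members called lower was found in the block.

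The others by that rule were ENPEP, an aminopeptidase gene (-1.32), NDNF, a secreted neurotrophic factor gene (-1.26), GALNTL6, a gene of the mucin-type glycosyltransferase family (-1.11), HHIP (-1.11) and VEGFC (-1.04). NDNF had 31.3 and 31.1 CPM in PGK and 17.3, 11.3 and 10.9 CPM in CAG. ENPEP had 17.5 and 23 CPM against 7.11, 8.29 and 8.32 CPM. In each the PGK libraries were the higher ones. HELT, a basic helix-loop-helix factor gene of the distal rows, had 0 counts in both PGK libraries and 8, 9 and 7 in CAG, too few to be tested.

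**Figure D5:**
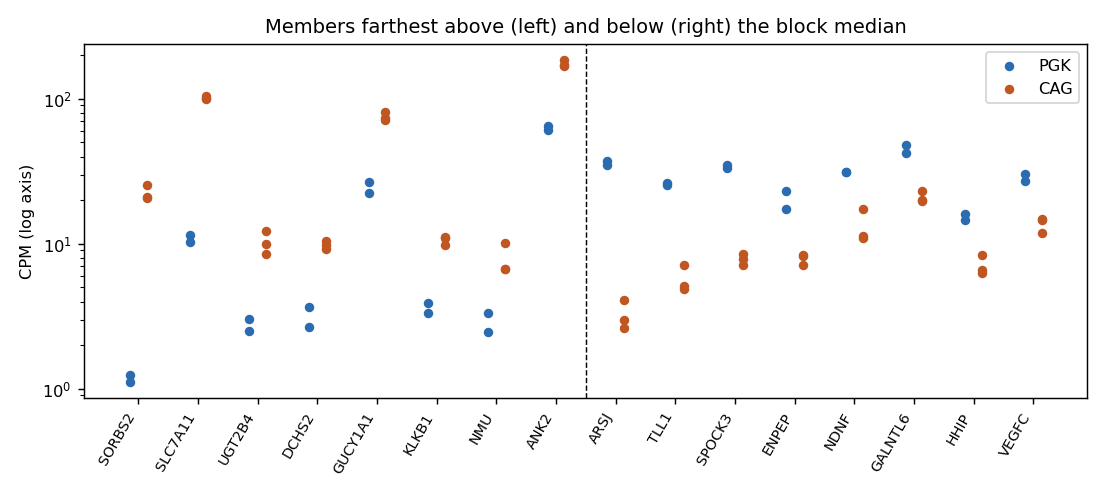
CPM on a log axis (vertical) of the members farthest above (left of the dashed line) and below (right) the block median, in that order (horizontal axis). Points are libraries, blue for PGK and orange for CAG. The lines do not overlap in any of the 16 genes, which the rule required, and SORBS2, SLC7A11 and ARSJ are farthest apart.

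Several of the longest silent runs of the block held tissue-restricted gene clusters. Of its 531 rows, 70 (13.2%) had 0 counts in all libraries and 147 (27.7%) fewer than 15, against 13.6% and 27.5% of the whole table. The longest run of rows under 15 counts had 23 rows (4674 to 4696) with 30 counts in all, and it holds sulfotransferase genes (SULT1B1, SULT1E1), casein genes (CSN1S1, CSN2, CSN3) and salivary protein genes (STATH, HTN1). A run of 8 rows (4665 to 4672) holds UGT2B17, UGT2B15 and UGT2B7, which conjugate steroids and drugs in liver, and a run of 7 rows (4712 to 4718) holds the chemokine genes CXCL8, CXCL1, PF4, PPBP and CXCL5. A further run of 8 rows, at the end of the arm, is described with the distal rows. The UGT2B genes are close copies of one another, and the chemokine genes form a family of related genes, so single values in those families are uncertain.

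Of 28 genes listed for liver, milk, saliva, red cells and chemokines, 26 had fewer than 15 counts and 16 were at 0. The other 2, UGT2B4 and KLKB1, were among the members farthest above the block median. UGT2B4 had 3.01 and 2.52 CPM in PGK and 8.53, 12.2 and 10 CPM in CAG (1.86), and KLKB1, the plasma prekallikrein gene, had 3.36 and 3.92 CPM against 11.2, 9.87 and 11 CPM (1.57). KLKB1 follows CYP4V2, whose value was 1.09, in the distal rows. The 147 rows under 15 counts summed to 66 and 32 counts in PGK and to 85, 66 and 86 in CAG.

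The distal rows were the quieter part of the arm. Of their 51 rows, 18 (35.3%) had fewer than 15 counts and 10 (19.6%) had none, and their tested members had a median of 21.4 CPM, against 50.9 CPM over the block and 47.4 CPM over the table, in counts per gene and not per length. FRG2 lies in the final run of 8 empty rows (5138 to 5145). FRG1 had 13.1 and 14.6 CPM in PGK and 19.3, 18.2 and 19.7 CPM in CAG (0.48), and it has near-identical copies elsewhere in the genome. Its call was lost without PGK replicate 1 (0.38), CAG replicate 1 (0.47) or CAG replicate 3 (0.45). It was also lost with DESeq2 (0.47) and with the replicate number as a block in the fit (0.45). PLEKHG4B, on chromosome 5, had 1.06 and 0.84 CPM against 2.64, 2.17 and 3.74 CPM (1.54). It was not called without PGK replicate 1 (1.75) or CAG replicate 3 (1.28), with DESeq2 (1.57) or with the replicate block (1.31).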

How the data were processed

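PRO-seq counts of 5 libraries were used. The authors deposited whole-number counts, 1 per Ensembl gene and library. Per the submitters' processing notes, featureCounts 2.0.3, HISAT2 2.2.1, Bowtie2 2.5.1, fastp 0.23.2, UMI-tools and cutadapt were used with build hg19. The sources used here do not give the annotation, the strand setting or the counted part of a gene, so values of overlapping, antisense or near-identical genes are uncertain. The 18 rows without identifier (at most 0.000448% of a library) were left out.

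All 20001 genes were filtered with edgeR's filterByExpr (minimum count 10, minimum total 15; 13400 kept), scaled by TMM and fitted with edgeR 4.0.16 in R 4.3.3 (quasi-likelihood test, no covariate, Benjamini-Hochberg adjusted p under 0.05). An SE is the absolute log2 fold change divided by the root of F. Untested members were fitted with a common dispersion. Python 3.11.15 made the summaries and figures. The fit was tested on simulated data with 100 changed genes among 13400. It recovered 62% of changes of 0.5 on the log2 scale and 92% of changes of 1, with 6 false calls at each size.

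The table does not pair identifiers with symbols. Names are known Ensembl identifiers: 205 of chromosome 4 were written down without the table in view, and 222 and PLEKHG4B with it, a departure from the naming rule as first written. The chromosome 4 names were checked against the order of RefSeq genes (GRCh38.p14), which tests the order and not each name by itself. Named are the genes of 9 lists by role, the 5 members highest in CPM, in each direction the 8 farthest from the block median (mean of at least 5 CPM, lines apart), and the genes at the limits. Others (neighbours of such genes, HELT, ENSG00000164089) were chosen after their values were seen. Members and lists were chosen with earlier results of these data known.

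Same-numbered libraries did not deviate together (r = 0.0384 and -0.0675), so numbers were not taken to pair libraries. Alternatives were other size factors, other filters, DESeq2 1.42.0, limma-trend (limma 3.58.1), the replicate block, each library left out and other summaries of the block. A further marker gene of another cell type is not reported here.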

Additional observations from a re-analysis of the deposited data

How the results depend on the processing

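The block median of 0.50 and the distal median of 0.85 moved by less than the spread between libraries under other size factors, other filters, DESeq2 and limma-trend. Leaving out 1 library gave 0.43 to 0.54 for the block and 0.78 to 0.86 for the distal rows, both lowest without PGK replicate 1. The distal rows exceeded the main rows by 0.39, by 0.36 under limma-trend and by 0.32 to 0.41 with 1 library left out. As a mean over members in place of a median, this difference was 0.65 and the distal level 1.15. These values all keep the inner boundary, which was placed on the fold changes, and do not test it. With each library set against the other line's mean, the block stood at -0.52 and -0.43 in PGK and 0.47, 0.46 and 0.51 in CAG. With the replicate number as a block in the fit, the difference of distal and main rows was 0.41, 238 members were called higher and 15 lower, and 4667 genes were called over the table. Counts of calls stayed within 1.5 times under all alternatives run, at 221 to 275 members called higher and 13 to 19 lower.

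Over 168 named genes and 12 alternatives, 1997 values were obtained: 1893 kept their direction and side of the threshold, 93 lost a call and 11 gained one. No gene called in the main setting changed sign, while RPS3A, not called there at -0.15, was called at -0.69 without PGK replicate 1 and at 0.52 without PGK replicate 2. Depth limits the members under 5 CPM, which rest on few counts. With 1 PGK library left out, the remaining one is assumed to vary like the CAG libraries. The lines differ in clone as well as in promoter.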
